A study of Mus musculus with 24 samples.

Results

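The comparison set primary cultures of the mouse fetal midbrain kept for 13 d against the same kind of culture kept for 48 h, both in 21% O2, the oxygen level of room air. Its members were the 6 arrays whose labels give midbrain, 21% O2 and either time, 3 at 13 d and 3 at 48 h, out of 24 arrays in the series, and all 23410 probe sets of the array that carry a gene symbol. All 24 arrays came from C57Bl/6 mice without any named transgene or mutation, with cells taken at embryonic day 14 and held in expansion medium that was renewed several times a week. The series crossed region (cortex or midbrain), culture time (48 h or 13 d) and oxygen (3% or 21%) in 8 groups of 3 arrays, and a whole-transcript mouse gene array read the RNA of 1 culture well per sample. The labels call the cells a midbrain primary culture of neural stem cells, so each sample was a mixed population with no sort, and they do not say which wells shared embryos or a dissection. The p-values below therefore measure the spread between these samples, which may be technical. Values are log2 values as the authors deposited them, so a difference of 1 is a 2-fold difference.

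Neural stem cells of the fetal brain, known as radial glia, divide along the ventricle and produce neurons first and astrocytes and oligodendrocytes later. In the mouse midbrain at the stage of dissection many neurons have just been born, among them glutamatergic and GABAergic neurons of the tectum and tegmentum and the dopaminergic neurons of the ventral midbrain. In a dish with mitogens, neurons do not divide, whereas progenitors do, and long-kept progenitor cultures are known to acquire glial genes.

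The labels place the 6 midbrain 13 d arrays in one array set and the other 18 arrays of the series in another, so in every midbrain time comparison array set and time cannot be told apart. Array medians over all probe sets lay between 7.35 and 7.42, and the median change over the tested probe sets was 0.03. Within each midbrain group at 21% O2 the arrays correlated across probe sets at 0.9981 to 0.9986 (13 d) and 0.9943 to 0.9969 (48 h), and the means of the 2 groups at 0.9147. Replicate 1 of the 48 h group had higher list means than the other 2 for mitosis, DNA replication and radial glia, as given beside those results. The same held for astrocytes (8.66 against 8.45 and 8.52) and oligodendrocyte precursors (8.60 against 8.47 and 8.32). It also held for mitochondrial breakdown (8.39 against 8.11 and 8.09) and ribosomal protein genes (11.45 against 11.20 and 11.20), but not for myelin genes (7.08 against 7.14 and 7.04). Its array weight of 0.3 was the lowest of the 6 compared arrays. Ribosomal protein genes, a broad class, were higher in 83 of 227 probe sets and lower in 1, with a median change of 0.81, and small nucleolar RNA genes were higher in 14 of 56 and lower in 2. Over all probe sets tested 7.97% were higher and 7.44% lower by the same rule, given below. The part of both gene classes in the results was not tested.

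A probe set was called higher or lower at 13 d when its limma adjusted p was below 0.05 and its change was at least 2-fold; "rose" and "fell" are used for called probe sets. At 13 d, 1865 probe sets (7.97% of those tested) rose and 1742 (7.44%) fell, and in 1864 and 1741 of them the 3 arrays of each time did not overlap. A called change of at least 2-fold leaves little room for overlap, so these counts add no support of their own. The share without overlap over all probe sets was not counted. The counts of the gene lists below are to be read against 7.97% and 7.44%. Without a size limit, 13328 probe sets (56.9%) passed the adjusted p, 7416 upward and 5912 downward. Counts by the adjusted p alone are to be read against these. The falls reached further than the rises, with 51 falls and 10 rises of at least 16-fold on the deposited scale, and 586 falls and 385 rises of at least 4-fold. The changes ran from -6.85 (Stmn2) to 4.7 (Mmd2). In bulk RNA, fewer cells of a type and less RNA per cell cannot be told apart.

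The largest fall was that of a neuronal gene. Stmn2, a microtubule regulator of growing axons, read 13.29, 13.33 and 13.32 on the 48 h arrays and 6.59, 6.42 and 6.38 on the 13 d arrays. The 2 groups lay far apart, and the fall of 6.85 ± 0.18 (log2, SE; adjusted p = 9.3e-17) was the largest of all. Its 13 d values lay below the array medians. Whether such low values are above background is not shown by the deposited table, so no fold is given against them. Of the 15 largest falls, Tmem130 and Adgrl2 followed with -6.21 ± 0.13 and -6.18 ± 0.09. Adgrl2, an adhesion receptor of synapses, had 8 probe sets, all called lower, with changes from -6.18 to -1.51. The others among the 15 included Syt1 and Syt4, calcium sensors of vesicle release, the transmitter receptor subunits Gabrb2, Gabra5 and Glra2, the vesicular glutamate transporter Slc17a6, and the transcription factors Tfap2b, Tfap2d and Runx1t1, with changes between -5.78 and -4.87. Hecw1 and Elmod1 changed by -5.12 and -4.98.

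**Figure D1:**
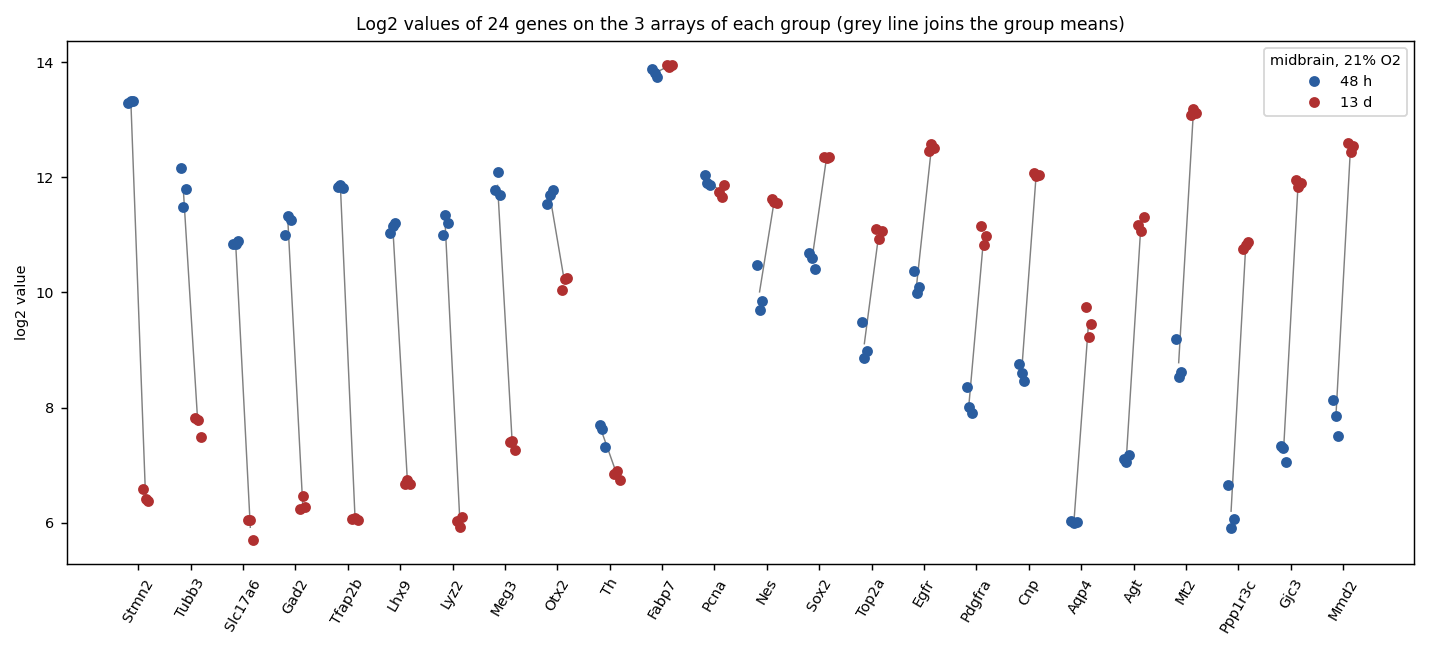
Log2 values (vertical axis) of 24 named genes on the 3 midbrain arrays at 48 h (blue) and the 3 at 13 d (red), 21% O2, with a grey line between group means. Neuronal and midbrain genes such as Stmn2 drop from 13.29 to 13.33 at 48 h to 6.38 to 6.59 at 13 d, Gjc3 goes from 7.05 to 7.34 up to 11.83 to 11.96, and Fabp7 lies between 13.74 and 13.96 at both times.

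Neuronal structure and release genes fell together. Of 30 measured genes of the neuronal cytoskeleton and RNA binding proteins, 25 fell and 0 rose, with a median change of -2.76 against 0.03 for all probe sets. L1cam, an axonal adhesion molecule, changed by -4.75 ± 0.11, Nefl, the light neurofilament, by -4.15 ± 0.12, and Mapt, the tau gene, by -4.04 ± 0.21. Tubb3, the neuronal beta tubulin, read 12.17, 11.49 and 11.79 at 48 h and 7.82, 7.79 and 7.49 at 13 d, a fall of 4.11 ± 0.20 (adjusted p = 4.2e-13). The list mean was 11.74, 11.74 and 11.70 on the 48 h arrays and 9.04, 8.94 and 8.98 on the 13 d arrays, with no overlap. Of 24 genes of synaptic vesicles and release, 18 fell and 0 rose (median -2.50). Snap25, a fusion protein of the vesicle, fell from 12.65, 12.79 and 12.67 to 8.79, 8.69 and 8.82, by 3.94 ± 0.13 (adjusted p = 1.3e-15). Rab3c, a vesicle GTPase, fell by 4.54 ± 0.16, and Unc13a, a priming factor, by 3.14 ± 0.10, although 1 of the other probe sets of Unc13a was not called (-0.33 ± 0.08).

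Among 26 ion channel and receptor genes 20 fell and 0 rose (median -2.26). The glycine receptor subunit Glra2 fell by 5.17 ± 0.17, the GABA receptor subunits Gabra3 and Gabra2 by 4.80 ± 0.19 and 3.61 ± 0.11, the NMDA receptor subunit Grin2b by 4.35 ± 0.12, and the sodium channel Scn2a by 3.75 ± 0.18. Transmitter identity genes were few but clear. Slc17a6 read 10.85, 10.85 and 10.90 at 48 h and 6.04, 6.04 and 5.70 at 13 d, and fell by 4.94 ± 0.10 (adjusted p = 1.8e-18). Gad2, a GABA-synthesizing enzyme, read 10.99, 11.33 and 11.26 and then 6.23, 6.46 and 6.27, a fall of 4.87 ± 0.11 (adjusted p = 1.1e-17). Its partner Gad1 fell by 3.30 ± 0.09, the GABA vesicle transporter Slc32a1 by 2.24 ± 0.09 and the acetylcholine-degrading Ache by 1.54 ± 0.19. The remaining 9 of the 14 measured transmitter genes were not called, with changes from -0.95 to 0.26. Of 22 neuropeptide and granin genes 11 fell and 0 rose, led by Sst (somatostatin, -3.87 ± 0.24), Scg2 (-3.71 ± 0.20), Vgf (-3.25 ± 0.12), Tac1 (-3.18 ± 0.10) and Chgb (-3.06 ± 0.11).

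Transcription factors of the midbrain and tectum were also among the large falls. Of 22 measured, 16 fell and 0 rose, with a median of -2.31. Tfap2b read 11.84, 11.87 and 11.82 at 48 h and 6.06, 6.09 and 6.05 at 13 d, and fell by 5.78 ± 0.05 (adjusted p = 2.6e-24). Lhx9 fell from 11.04, 11.15 and 11.21 to 6.68, 6.74 and 6.68, a change of -4.43 ± 0.08, and Gata3, a factor of midbrain GABAergic neurons, changed by -4.18 ± 0.11. Lef1 fell by 3.86 ± 0.09 and Lhx1 by 3.68 ± 0.06. Otx2, which marks the midbrain and forebrain from early on, moved less: 11.54, 11.70 and 11.78 at 48 h and 10.04, 10.23 and 10.25 at 13 d, a change of -1.5 ± 0.22 (adjusted p = 5.8e-06). En1, a factor of the midbrain-hindbrain border, was not called (-0.27 ± 0.23, adjusted p = 0.33), with 9.49, 9.14 and 8.94 at 48 h and 8.90, 8.90 and 8.95 at 13 d. Of 14 measured forebrain factors, Emx2 (-2.52 ± 0.34) and Lhx2 (-1.92 ± 0.28) fell and 0 rose (median 0.03), and Six3, Gsx2 and Lmo4 were not called (-0.88, 0.29 and 0.53). The 2 falls of 14 stand beside 7.44% falls over all probe sets tested.

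Genes of dopaminergic neurons, the cells for which midbrain cultures are often kept, changed less. Of 18 measured, 3 fell and 0 rose, with a median of -0.28. Over all probe sets tested 7.44% fell. Nr4a2, a nuclear receptor required for the dopaminergic fate, read 9.88, 10.28 and 9.80 at 48 h and 7.98, 8.03 and 8.00 at 13 d, and fell by 1.98 ± 0.13 (adjusted p = 7.2e-11). Bnc2 fell by 2.83 ± 0.07 and the dopamine receptor Drd2 by 1.39 ± 0.07. Th, the rate-limiting enzyme of dopamine synthesis, was low at both times, with 7.70, 7.63 and 7.31 at 48 h and 6.85, 6.90 and 6.75 at 13 d. Its groups did not overlap, but the change of -0.71 ± 0.11 (adjusted p = 1.2e-05) was below the 2-fold limit. Slc18a2 (-0.99 ± 0.13) and En2 (-0.99 ± 0.31) lay just under that limit, and the count of falls was 5 without 13 d replicate 1, without 48 h replicate 2 or without 48 h replicate 3.

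The genes of neuronal commitment lay on both sides. Of 26 measured, 6 rose, 9 fell and 11 were not called (median -0.55). Ebf2 fell by 4.11 ± 0.08, Myt1l by 3.94 ± 0.10, Ebf3 by 3.48 ± 0.20 and Neurod1 by 2.79 ± 0.12. The rises included Btg2, an antiproliferative gene of neurogenic progenitors, with 8.19, 8.46 and 8.42 at 48 h and 11.21, 11.35 and 11.31 at 13 d, a rise of 2.93 ± 0.10 (adjusted p = 2.2e-15). Dll1, a ligand that activates Notch on neighbouring cells, and Dll3, a divergent member of the same family, rose by 2.49 ± 0.11 and 2.69 ± 0.27; both were singled out after their values were seen.

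**Figure D2:**
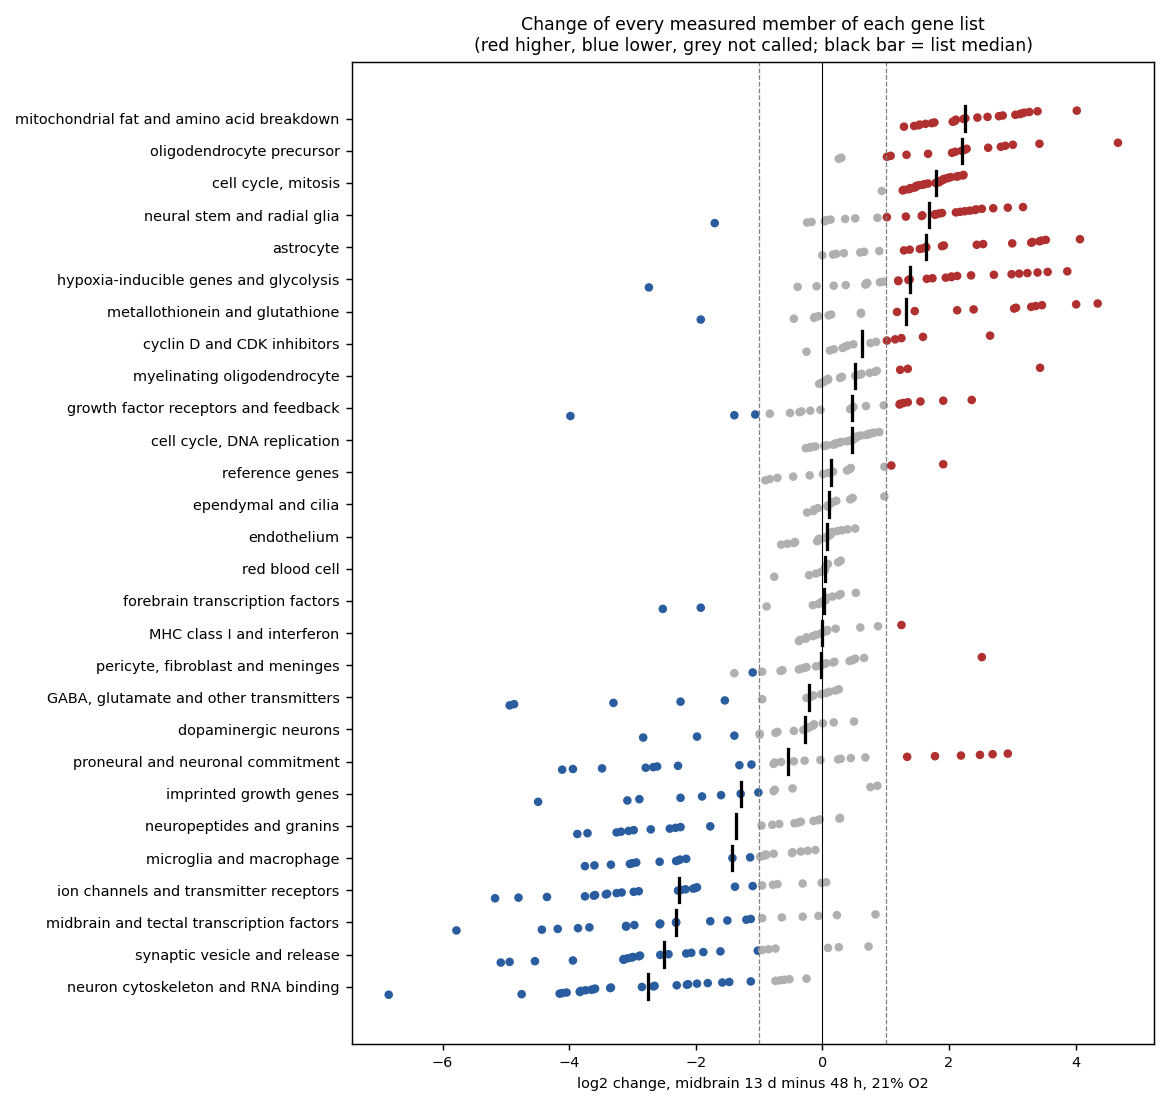
Log2 change from 48 h to 13 d (horizontal axis) of every measured member of 28 gene lists (microRNA lists left out), midbrain at 21% O2, with called rises in red, called falls in blue, other members in grey, list medians as black bars and the 2-fold limits as dashed lines. The list medians run from -2.76 for the neuronal cytoskeleton to 2.25 for mitochondrial breakdown.

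Progenitor genes rose. Of 28 measured genes of neural stem cells and radial glia, 18 rose and 1 fell (median 1.68). Sox2, the transcription factor that maintains neural progenitors, read 10.69, 10.60 and 10.41 at 48 h and 12.35, 12.34 and 12.35 at 13 d, a rise of 1.78 ± 0.07 (adjusted p = 1.4e-14). Nes, the progenitor filament protein nestin, read 10.47, 9.70 and 9.86 and then 11.63, 11.58 and 11.56, a rise of 1.58 ± 0.16. The largest rises of the list were Ednrb (3.17 ± 0.13), the BMP target Id3 (2.93 ± 0.12), the Notch target Hes5 (2.70 ± 0.23), the gliogenic factor Sox9 (2.52 ± 0.12) and Mt3 (2.43 ± 0.18). Fabp7, a fatty acid binding protein of radial glia, was near the top of the scale at both times and was not called (13.88, 13.82 and 13.74 against 13.95, 13.92 and 13.96; adjusted p = 0.059). Id4, singled out after its values were seen, fell by 1.70 ± 0.29. The list mean of replicate 1 at 48 h was 9.77, against 9.47 and 9.45 for the other 2, and 10.90 to 10.92 at 13 d; without that replicate 19 members rose and 1 fell.

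Growth factor genes were mixed, with 7 of 22 higher and 3 lower. Egfr, the receptor for the mitogen EGF, read 10.38, 9.99 and 10.09 at 48 h and 12.45, 12.58 and 12.51 at 13 d, a rise of 2.36 ± 0.10 (adjusted p = 6.2e-14). The feedback inhibitor Spry2 rose by 1.55 ± 0.14 and the transcription factor Etv1 by 1.91 ± 0.08. The MAP kinase phosphatase Dusp4 fell by 3.98 ± 0.21 and Spry4 by 1.39 ± 0.22, so members of the same feedback families lay on both sides.

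Astrocyte genes rose without exception among the called members. Of 24 measured, 17 rose and 0 fell (median 1.64). Aqp4, the water channel of astrocyte endfeet, read 6.03, 6.00 and 6.01 at 48 h and 9.75, 9.23 and 9.45 at 13 d, a rise of 3.46 ± 0.35 (adjusted p = 2.9e-08) from values below the array medians. Agt, angiotensinogen, rose by 4.07 ± 0.31, the peptide transporter Slc15a2 by 3.53 ± 0.24, Mlc1 by 3.43 ± 0.11 and the folate enzyme Aldh1l1 by 3.32 ± 0.27. Gfap, the filament of mature astrocytes, rose less, from 6.01, 6.13 and 6.14 to 7.78, 7.43 and 8.00 (1.64 ± 0.35, adjusted p = 0.00038). Slc1a2 and Apoe, singled out after their values were seen, overlapped between the times: Slc1a2, the main glutamate transporter of mature astrocytes, read 10.26 to 10.55 at 48 h and 10.28 to 10.57 at 13 d.

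Of 17 genes of oligodendrocyte precursors 15 rose and 0 fell, with the median of 2.20. Pdgfra, the PDGF receptor that defines these cells, read 8.36, 8.01 and 7.91 at 48 h and 11.16, 10.82 and 10.98 at 13 d, a rise of 2.89 ± 0.31 (adjusted p = 6.7e-08). Gjc3, a connexin, read 7.34, 7.30 and 7.05 and then 11.96, 11.83 and 11.91, a rise of 4.67 ± 0.35. Gpr17, a receptor of precursors about to differentiate, rose by 3.43 ± 0.42, Sox8 by 3.01 ± 0.11, Bcan by 2.82 ± 0.16, Sox10 by 2.20 ± 0.36 and Olig2 by 2.05 ± 0.14. Myelin genes did not follow in the same number, with 3 of 17 higher. Cnp rose from 8.75, 8.60 and 8.46 to 12.08, 12.02 and 12.04 (3.44 ± 0.21), Myrf, the regulator of myelin genes, by 1.35 ± 0.36, and Sirt2 by 1.23 ± 0.22. Mbp and Mog, structural genes of myelin singled out after their values were seen, were not called (0.04 ± 0.38 and 0.09 ± 0.10).

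Mitosis genes rose nearly as a block. Of 29 measured, 28 rose and 0 fell, with changes from 0.94 to 2.23 and a median of 1.79. Top2a, a topoisomerase of chromosome condensation, read 9.49, 8.87 and 8.98 at 48 h and 11.11, 10.93 and 11.06 at 13 d, a rise of 1.92 ± 0.12 (adjusted p = 1.4e-11). A second, dim probe set of Top2a (mean 5.13) was not called. The proliferation antigen Mki67 read 10.22, 9.74 and 10.13 and then 11.58, 11.50 and 11.49 (1.49 ± 0.10). The largest changes were those of the spindle and centromere genes Nusap1 (2.23 ± 0.11), Prc1 (2.22 ± 0.14), Cenpa (2.15 ± 0.11), Nuf2 (2.12 ± 0.13) and Kif11 (2.03 ± 0.13).

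DNA replication genes, which act earlier in the same cycle, changed less. Of 29 measured, 0 rose and 0 fell by the call rule in the limma fit. By the adjusted p alone 17 passed, all upward. Over all 23410 probe sets tested 7416 passed it upward. The changes of the 29 replication genes ran from -0.26 to 0.90 (median 0.47), so the largest of them was below the smallest of the mitosis list. Mcm2, a subunit of the replicative helicase, read 9.51, 8.99 and 8.78 at 48 h and 9.75, 9.84 and 9.88 at 13 d (0.73 ± 0.15, adjusted p = 0.00037), and Rrm1, a ribonucleotide reductase subunit, changed by 0.90 ± 0.07. Pcna, the sliding clamp, singled out after its values were seen, read 12.04, 11.90 and 11.87 and then 11.74, 11.65 and 11.86 (-0.18 ± 0.09). Replicate 1 at 48 h was the highest of its group in both cycle lists, with list means of 8.97 against 8.45 and 8.5 for mitosis and 8.88 against 8.45 and 8.49 for replication. Without it 29 mitosis genes and 0 replication genes rose. When all probe sets of the replication genes were taken, 1, a second probe set of Tk1, was higher (1.18 ± 0.17).

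Of 14 genes of D cyclins, cyclin-dependent kinases, their inhibitors and retinoblastoma proteins, 5 rose and 0 fell (median 0.63), 3 of the rises being inhibitors. Cdkn2c, an inhibitor of CDK4 and CDK6, read 7.44, 7.11 and 6.90 at 48 h and 9.79, 9.78 and 9.84 at 13 d, a rise of 2.65 ± 0.11 (adjusted p = 4e-14). Cdkn2b rose by 1.59 ± 0.13, and Cdkn2a, a gene that accumulates in long-kept cultures, read 6.75, 6.75 and 7.10 and then 8.12, 8.10 and 8.12 (1.25 ± 0.12). Cdk2 rose by 1.15 ± 0.15 and Ccnd3 by 1.02 ± 0.06; the Ccnd3 change was 0.98 to 0.99, under the limit, with quantile normalization, without 13 d replicate 3 or without 48 h replicate 3. Cdkn1c was not called (0.76 ± 0.24).

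**Figure D3:**
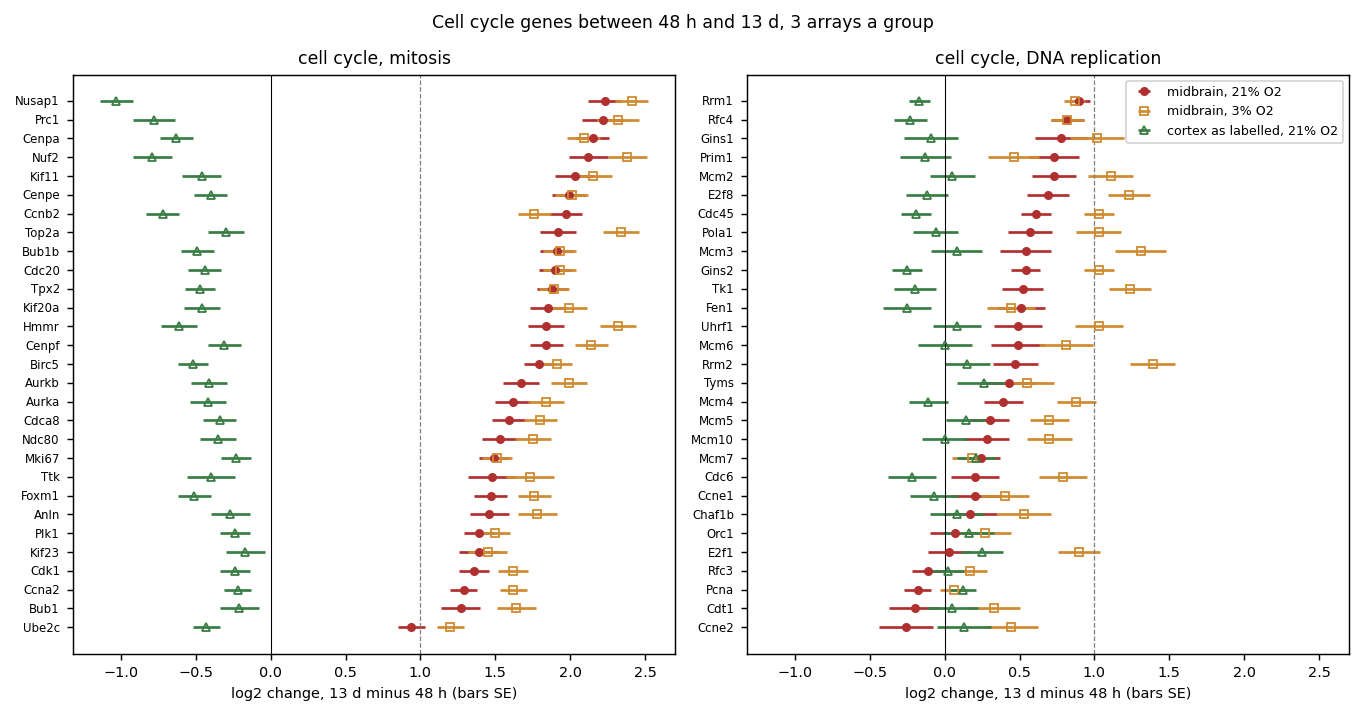
Log2 change from 48 h to 13 d (horizontal axis, bars SE) of 29 mitosis genes and 29 DNA replication genes in midbrain at 21% O2 (filled circles), midbrain at 3% O2 (squares) and cortex as labelled at 21% O2 (triangles), 3 arrays a group. In midbrain at 21% O2 the mitosis genes lie between 0.94 and 2.23 and the replication genes between -0.26 and 0.90, while the cortex list medians are -0.42 and 0.00.

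The start regions of the mitosis genes share 2 short sequence words that the choice of the list did not use. In the RefSeq table of promoter windows (build GRCm38.p6, 250 bases before to 50 bases after each start), 24 of the 29 mitosis genes had 25 windows. CCAAT, the word bound by the factor NF-Y, was present on either strand in 20 of these 25 windows, and in 12289 of all 32851 windows of the table (37.4%). TTTGAA, the core of the cell cycle homology region, was present in 20 of 25, against 5878 of all windows (17.9%). Both occurred in 18 of 25, against 2284 of all (6.95%). Among the 28 windows of 25 replication genes, CCAAT was present in 18, TTTGAA in 4 and both in 3. The E2F words TTTCCCGC, TTTGGCGC, TTTCGCGC and TTTGCCGC, counted as 1 class and on either strand, were present in 10 of the 28 replication windows, in 1 of the 25 mitosis windows and in 744 of all (2.26%). A match is a description of these letters and shows no binding.

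The windows of Ccnb2, Cdc20 and Top2a are shown as examples of the 2 words in mitosis genes whose RNA rose by 1.97 ± 0.11, 1.90 ± 0.11 and 1.92 ± 0.12; Ccnb2, a mitotic cyclin, and Cdc20, an activator of the anaphase complex, were picked after their values were seen. Capitals mark CCAAT and TTTGAA or their reverse complements, and each window is written 5′ to 3′ on the gene's strand, which is the minus strand for all 3. They lie at chr9:70421505-70421804, chr4:118437294-118437593 and chr11:99024140-99024439.
Ccnb2: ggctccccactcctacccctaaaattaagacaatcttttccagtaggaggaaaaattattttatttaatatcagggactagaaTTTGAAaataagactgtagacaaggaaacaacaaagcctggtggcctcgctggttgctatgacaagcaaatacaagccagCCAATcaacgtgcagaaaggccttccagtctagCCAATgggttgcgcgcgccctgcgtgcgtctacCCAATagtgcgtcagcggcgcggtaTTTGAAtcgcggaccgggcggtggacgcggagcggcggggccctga
Cdc20: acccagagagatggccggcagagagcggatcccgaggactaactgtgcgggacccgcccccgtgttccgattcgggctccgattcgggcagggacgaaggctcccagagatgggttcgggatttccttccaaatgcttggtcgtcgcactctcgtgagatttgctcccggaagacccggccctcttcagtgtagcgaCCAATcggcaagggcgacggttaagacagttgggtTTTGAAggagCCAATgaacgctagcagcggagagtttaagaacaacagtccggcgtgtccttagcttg
Top2a: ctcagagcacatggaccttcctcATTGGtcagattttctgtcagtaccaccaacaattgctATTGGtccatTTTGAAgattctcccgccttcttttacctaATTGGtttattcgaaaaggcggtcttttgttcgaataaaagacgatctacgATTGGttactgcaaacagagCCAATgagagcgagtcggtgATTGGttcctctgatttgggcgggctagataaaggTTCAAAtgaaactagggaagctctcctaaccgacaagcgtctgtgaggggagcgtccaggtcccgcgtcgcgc
Ccnb2 holds 3 CCAAT and 2 TTTGAA words, Cdc20 2 and 1, and Top2a 6 and 2.

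Words tied to neuronal genes were searched in the same way. CAGCTG, an E-box of proneural factors, was present in 11 of 42 windows of the neuronal cytoskeleton list, 9 of 28 of the synaptic list and 5355 of all (16.3%). CAGATG was present in 12, 3 and 5635 of all (17.2%). The word TTCAGCACC, a part of the RE1 element bound by the neuronal repressor REST, was present in 1 and 2 of those windows and in 122 of all (0.371%). In the other neuronal lists CAGCTG was present in 2 of 21 windows for channels and 3 of 17 for transmitters. It was in 4 of 20 for dopaminergic neurons and 3 of 20 for peptides. Microglia genes had it in 8 of 20 windows and pericyte genes in 6 of 19, so it was not particular to neuronal lists. CAGATG was present in 0 of 21 channel and 6 of 20 microglia windows.

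Imprinted genes were among the falls, and they led to a region of chromosome 12 that holds many microRNA genes. Of 13 imprinted growth genes 8 fell and 0 rose (median -1.29). Meg3, a long noncoding RNA expressed from the maternal copy, read 11.78, 12.10 and 11.70 at 48 h and 7.41, 7.42 and 7.27 at 13 d, a change of -4.49 ± 0.20 (adjusted p = 1.4e-13). Rian, its noncoding neighbour, fell by 3.08 ± 0.17, from 8.65, 9.20 and 8.80 to 5.69, 5.89 and 5.82. Zim1, Plagl1 and Magel2, of other imprinted regions, fell by 2.89 ± 0.09, 2.24 ± 0.17 and 1.90 ± 0.11. Dlk1, at the other end of the Meg3 region and expressed from the paternal copy, fell by 1.29 ± 0.18.

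The gene table places 40 measured microRNA genes between Dlk1 and Mirg, the host gene at the far end; this list was made after the data were seen. Of these, 19 fell and 0 rose (median -0.98), and 37 passed the adjusted p downward and 1 upward. Over all 23410 probe sets tested 5912 passed it downward. Of 256 microRNA genes elsewhere, 21 fell and 2 rose (median -0.07); these falls are 8.2% of that list, near the 7.44% of all probe sets tested. The list mean of the 40 genes was 6.95, 7.32 and 7.12 at 48 h and 6.04, 6.06 and 6.01 at 13 d, and many of these probe sets lay low at both times. A probe set of a microRNA gene on such an array detects RNA that contains the hairpin and cannot separate the hairpin, its host transcript and the mature microRNA.

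All 40 genes matched the RefSeq microRNA table, with 76 mature arms and 74 different seeds, the bases 2 to 8 that pair with targets. The seeds shared by 2 of the genes were AUGUAAC (miR-379-3p and miR-411-3p) and UGGAUAU (miR-376b-5p and miR-376c-5p). One arm each of 4 genes of the region, picked after their values were seen, is shown with the seed in capitals, because the seeds differ although all 4 genes fell; all lie on the plus strand of chromosome 12 (GRCm38.p6).
miR-377-3p: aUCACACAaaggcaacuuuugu
miR-382-5p: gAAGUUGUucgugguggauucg
miR-485-3p: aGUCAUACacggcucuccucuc
miR-134-5p: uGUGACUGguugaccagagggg
Mir377 read 8.03, 8.64 and 8.79 at 48 h and 5.36, 5.41 and 5.44 at 13 d, and fell by 3.08 ± 0.17 (adjusted p = 4.4e-12). Mir382 fell by 2.86 ± 0.19, Mir485 by 2.19 ± 0.09 and Mir134, a regulator of dendrites in neurons, by 1.87 ± 0.11. Their mature arms lie at chr12:109740553-109740574, chr12:109733781-109733802, chr12:109734946-109734967 and chr12:109734145-109734166.

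**Figure D4:**
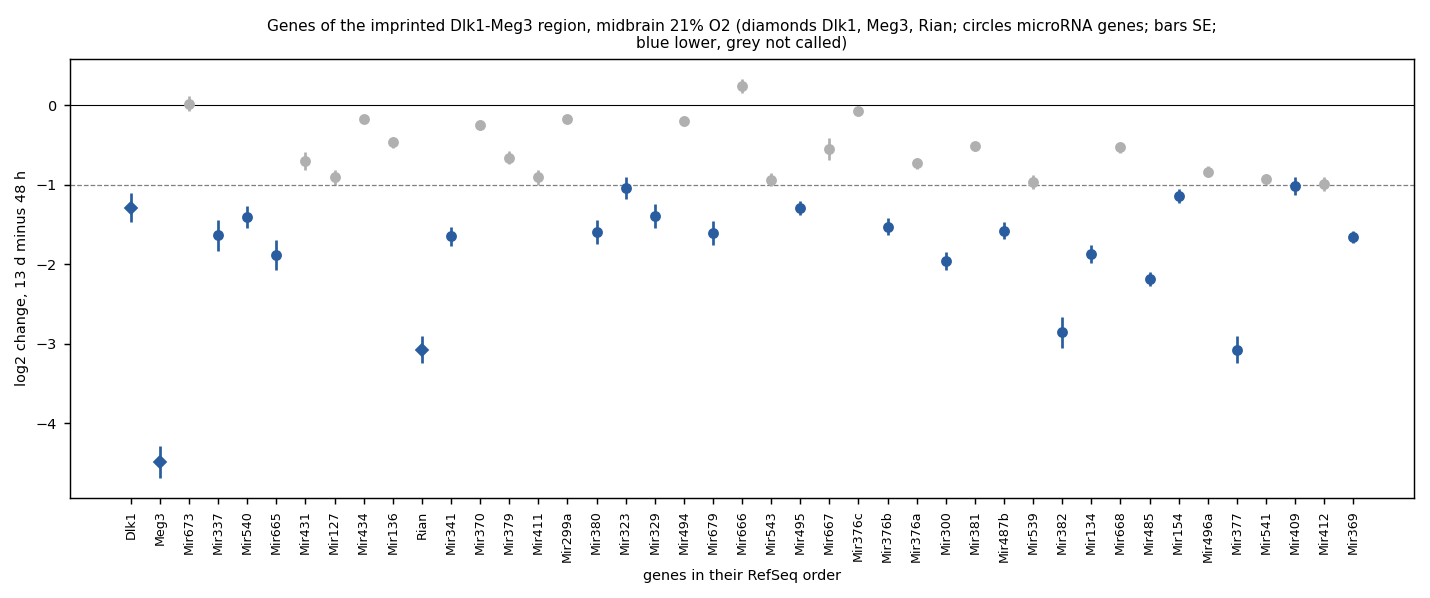
Log2 change from 48 h to 13 d (vertical axis, bars SE) of Dlk1, Meg3 and Rian (diamonds) and 40 microRNA genes (circles) of the imprinted region, in their RefSeq order (horizontal axis), midbrain at 21% O2, with called falls in blue and other genes in grey. Called falls occur along the whole region, and the lowest values are those of Meg3 (-4.49), Mir377 (-3.08) and Rian (-3.08).

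Outside that region, arms of microRNA genes known from neurons and progenitors are shown because some fell and 1 rose; they too were picked after the data were seen. Capitals mark the seed, and the 3 miR-181 arms share 1 seed.
miR-137-3p: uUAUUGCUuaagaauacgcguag
miR-181a-5p: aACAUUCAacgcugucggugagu
miR-181b-5p: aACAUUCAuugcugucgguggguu
miR-181c-5p: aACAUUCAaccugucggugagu
miR-9-5p: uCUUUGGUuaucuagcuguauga
Mir137 fell by 1.68 ± 0.10, and Mir181a-1, Mir181b-1 and Mir181c fell by 1.48 ± 0.16, 1.17 ± 0.30 and 1.11 ± 0.13. These genes were picked from 21 falls among the 256 microRNA genes outside the region, 8.2% of that list. Mir9-1, one of the genes of the progenitor microRNA miR-9, rose by 1.05 ± 0.14 (adjusted p = 2.6e-06), and Mir15a rose by 1.12 ± 0.16. The count of 2 rises was 1 with array weights, without 13 d replicate 1 or without 48 h replicate 1.

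Markers of further cell types were checked in the same arrays. Of 23 microglia and macrophage genes, 13 fell and 0 rose (median -1.42), and the list mean went from 8.13, 8.03 and 8.08 at 48 h to 6.33, 6.40 and 6.32 at 13 d. Lyz2, lysozyme of macrophages, was no member of that list but one of the 15 largest falls, and read 10.99, 11.34 and 11.20 and then 6.03, 5.93 and 6.10 (-5.16 ± 0.30). The changes were -3.75 ± 0.18 for Adgre1, a surface antigen of macrophages, -3.60 ± 0.18 for the complement gene C1qb, -3.34 ± 0.15 for Mpeg1, -3.04 ± 0.16 for Fcer1g and -3.00 ± 0.14 for Cd68. Aif1 read 6.07, 6.13 and 6.40 and then 5.64, 5.81 and 5.72, and was not called (-0.48 ± 0.09). The part of these cells in the falls of other lists was not tested. Endothelial genes gave 0 rises and 0 falls of 20 in the limma fit (5 passed the adjusted p alone, 4 upward), and red blood cell genes 0 and 0 of 11 (3 passed, 2 upward), with changes from -0.65 to 0.52 and from -0.76 to 0.29. Ependymal and cilia genes gave 0 and 0 of 12 (5 passed, 4 upward), and 1 rise in the case of Cfap126 (1.00 to 1.02) with quantile normalization, without 13 d replicate 1 or without 48 h replicate 1. Over all probe sets tested 56.9% passed the adjusted p alone, in either direction.

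Among genes of pericytes, fibroblasts and meninges the count of falls depended on 1 array. Of 22, Notch3 rose (2.52 ± 0.14), a receptor that radial glia also use, and Anpep fell (-1.10 ± 0.23). Over all probe sets tested 7.97% rose and 7.44% fell. Lum, a matrix gene of meningeal fibroblasts, read 5.87, 5.72 and 8.72 at 48 h and 5.35 to 5.42 at 13 d, and was not called (-1.39 ± 0.66, adjusted p = 0.08). Replicate 3 at 48 h had the list mean of 7.73 against 7.14 and 7.03, and the count of falls was 2, 3 and 0 without 48 h replicate 1, 2 and 3. Of 14 genes of MHC class I and interferon responses, 1, Tapbp, rose (1.25 ± 0.11) and 0 fell, with a median of -0.01. That 1 rise is near the share over all probe sets tested, of which 7.97% rose. Of 14 reference genes 2 rose, the glycolytic Pgk1 (1.91 ± 0.14) and the respiratory Sdha (1.09 ± 0.05), and 0 fell, with a median of 0.13. By the adjusted p alone 8 passed upward and 5 downward, with changes from -0.90 to 1.91. Over all probe sets tested 56.9% passed it, in either direction. Rps18 was not called through its chosen probe set, but its other probe sets changed by 0.99 to 1.18 and most were called higher.

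Metabolic genes were looked at in 3 further lists. These were made after the largest changes had been seen and hold some of them, so their counts are descriptions. All 24 genes of fat and amino acid breakdown in mitochondria rose, with changes from 1.29 to 4.02. Adhfe1, a hydroxyacid-oxoacid transhydrogenase, was among the 15 largest rises. It read 7.05, 7.08 and 6.94 at 48 h and 11.12, 11.00 and 10.99 at 13 d (4.02 ± 0.21, adjusted p = 1.1e-12). Cpt1a, the carnitine transferase that admits fatty acids, rose by 2.85 ± 0.14, and the beta-oxidation enzymes Acadl and Acaa2 by 3.05 ± 0.19 and 3.15 ± 0.11.

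Of 20 genes of metallothioneins and glutathione, 11 rose and 1 fell. Mt2, a zinc-binding metallothionein, read 9.19, 8.54 and 8.61 at 48 h and 13.08, 13.19 and 13.11 at 13 d, a 20.4-fold rise (4.35 ± 0.20, adjusted p = 1.6e-13), and Mt1 rose by 3.37 ± 0.13. Gstk1, a mitochondrial glutathione transferase, rose by 4.01 ± 0.13, and Hmox1, heme oxygenase, fell by 1.92 ± 0.21. Of 29 genes known to respond to hypoxia or to serve glycolysis, 18 rose and 1 fell, although both groups were kept in 21% O2. Txnip read 7.12, 6.81 and 6.43 and then 10.61, 10.68 and 10.67 (3.87 ± 0.24), the prolyl hydroxylase Egln3 rose by 3.56 ± 0.21, Pdk1 by 3.24 ± 0.23, Bnip3 by 3.11 ± 0.30 and Vegfa by 1.65 ± 0.23. Car9, a carbonic anhydrase induced by hypoxia, was not called (0.71 ± 0.26), and the platelet type phosphofructokinase gene Pfkp fell by 2.74 ± 0.21. The list mean in 21% O2 was 9.08, 8.96 and 8.93 at 48 h and 10.40, 10.54 and 10.58 at 13 d, with no overlap. In 3% O2 it was 9.79 ± 0.33 (SD, n = 3) at 48 h and 11.35 ± 0.10 at 13 d.

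The rest of the 15 largest rises belonged to none of the lists. Mmd2 read 8.13, 7.86 and 7.50 at 48 h and 12.59, 12.44 and 12.54 at 13 d (4.7 ± 0.37, adjusted p = 9.2e-10). Ppp1r3c, a regulatory subunit that promotes glycogen synthesis, read 6.65, 5.90 and 6.06 and then 10.75, 10.83 and 10.88 (4.62 ± 0.32), and the potassium channel Kcnj10 of astrocytes and oligodendrocytes rose by 3.75 ± 0.28. Prkcq, Scrg1, Plekhb1, Cyp2j9, Asrgl1 and Plcd4 rose by 4.11, 4.02, 4.01, 3.97, 3.85 and 3.79.

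The same time comparison in midbrain at 3% O2, on 6 other arrays with the same division into array sets, gave 2038 rises (8.71%) and 1883 falls (8.04%). Of the rises at 21% O2, 1467 were also called at 3% O2, which is 78.7% of the first list and 72% of the second. Of the falls 1476 were shared, 84.7% and 78.4%, and 0 probe sets were called in opposite directions. The list medians at 21% and 3% O2 were -2.76 and -2.87 for the neuronal cytoskeleton, -2.31 and -1.91 for midbrain factors, 1.64 and 1.70 for astrocytes, 2.20 and 1.59 for oligodendrocyte precursors and 1.79 and 1.89 for mitosis. Replication genes had a median of 0.81 at 3% O2, with 10 of 29 called higher. Gjc3 rose by 4.67 ± 0.35 at 21% and 2.11 at 3%, and Gpr17 by 3.43 ± 0.42 and 1.18. Whether the time change differed between the oxygen levels was not tested.

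In cortex at 21% O2, where both labelled times lie in the same array set, the comparison of 13 d with 48 h as labelled gave 743 rises (3.17%) and 627 falls (2.68%), mostly of the opposite kind. The cortex time labels are in doubt, because each cortex group resembled the midbrain group of the other time in the correlations of the group means. They were used as given, and if they were exchanged, every cortex direction printed here would turn. Of the midbrain rises, 533 (28.6%) were called lower in cortex and 2 higher, and of the midbrain falls 649 (37.3%) were called higher in cortex and 1 lower. These made up 85% of the cortex falls and 87.3% of the cortex rises. Stmn2 changed by 3.53 in cortex, from a mean of 9.24 at labelled 48 h to 12.77 at labelled 13 d, and Pdgfra by -2.88, from 10.93 to 8.04. The difference between the 2 time changes, midbrain minus cortex, was called more positive for 3182 probe sets (13.6%) and more negative for 2672 (11.4%), and was -10.38 ± 0.26 for Stmn2 (adjusted p = 2.3e-17). With the sign of the cortex change turned, an alternative chosen after seeing the data, the counts were 673 (2.87%) and 800 (3.42%), and the Stmn2 difference was -3.32 ± 0.26 (adjusted p = 1.4e-08).

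Replicate 1 of cortex labelled 48 h stood apart from its group. Its list means were 9.22 against 10.24 and 10.08 for astrocytes, 7.29 against 8.47 and 8.34 for myelin and 10.12 against 9.35 and 9.62 for DNA replication. Without it, cortex gave 710 rises and 729 falls as labelled.

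The mean of midbrain 13 d correlated across probe sets at 0.9896 with cortex labelled 48 h and at 0.9509 with cortex labelled 13 d. The mean of midbrain 48 h correlated at 0.9738 with cortex labelled 13 d and at 0.9303 with cortex labelled 48 h. Each pair of the midbrain 13 d group crosses the array sets, and probe sets are not independent replicates. Among the midbrain factors, 2 of 22 were called higher in cortex as labelled and 0 lower, and Tfap2b had means of 6.06 and 6.07 there. Of the 29 mitosis genes, 0 were called higher and 1 lower in cortex, where the list mean was 10.51 ± 0.13 at labelled 48 h and 10.07 ± 0.04 at labelled 13 d.

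**Figure D5:**
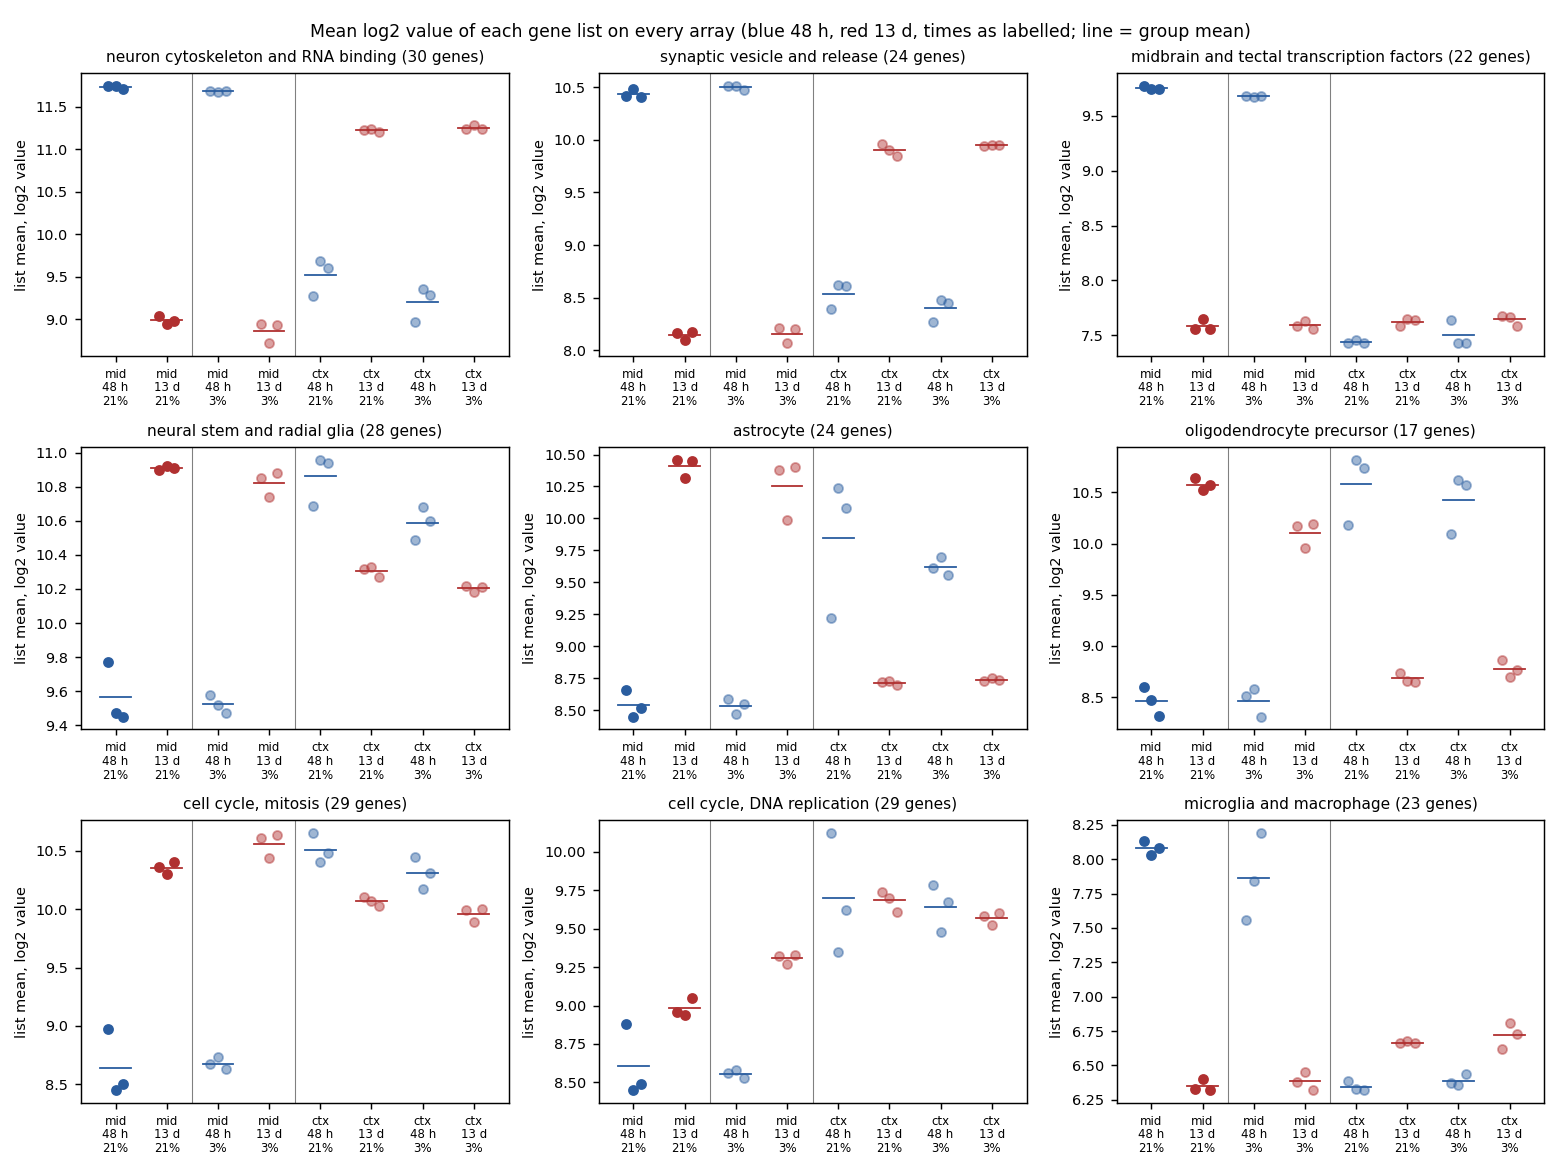
Mean log2 value of 9 gene lists (vertical axes) on each of the 24 arrays, by region (mid for midbrain, ctx for cortex), labelled time and oxygen, with 48 h in blue, 13 d in red and a line at each group mean. Both midbrain oxygen levels run the same way with time, the cortex groups run the other way as labelled for neuronal and glial lists, with 1 cortex 48 h array at 21% O2 below the other 2 for astrocytes, and the group means of the midbrain factors are 9.75 and 9.68 in midbrain at 48 h and 7.44 to 7.65 in the other 6 groups.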

How the data were processed

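RNA of 24 samples was measured on a whole-transcript mouse gene array, 1 sample an array. The authors deposited 1 table of log2 values, called normalized in the labels, with 28856 probe sets; the background correction and normalization are not given in the sources used here, and a normalized log2 table shows no background, so signal over background is unknown, and precision is limited by how few arrays there are. GEO's probe table gave 1 symbol for 21789 probe sets and several for 1621, which were tested together; 5446 were unnamed. A model with 1 mean per group (8 groups, all 24 arrays, 16 residual degrees of freedom) was fitted in limma 3.58.1 (R 4.3.3) with eBayes, two-sided tests and Benjamini-Hochberg adjustment over 23410 probe sets. All groups entered the fit so that they share 1 estimate of the spread. The fit was tested on simulated arrays.

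Members and the 25 gene lists were chosen with earlier results of these data known; the metabolic and microRNA lists were added after the values were seen. Of 546 listed genes 504 were measured, each by its probe set with the highest mean. The text names the 15 largest rises and 15 largest falls with 1 symbol and no overlap between the times, up to 5 members of each list with the largest change, a fixed panel, and others where it says so; clone symbols, Xist and Y-linked genes were passed over. Sequences are RefSeq's (GRCm38.p6), matched by symbol. Alternatives were inclusion of unnamed probe sets, restriction to brighter ones, centring on array medians, quantile normalization, robust eBayes with a trend, the 6 compared arrays alone, array weights, a replicate block, a fold threshold of 4 and each array left out. For the counts and medians of the gene lists, quantile normalization, the compared arrays alone, array weights and leaving out arrays were chosen after seeing the data.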

Additional observations from a re-analysis of the deposited data

Results flagged for a closer look

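The time change differed between midbrain and cortex at 21% O2, by a test of the difference in the limma fit, for 3182 probe sets with a more positive and 2672 with a more negative change in midbrain, cortex times as labelled. Over all probe sets tested these are 13.6% and 11.4%. Of the 161 probe sets named by the rule, the difference was called for 131. Of these, 38 rose in midbrain and fell in cortex, 42 did the opposite, and 0 were called in the same direction in both. The rule names probe sets mainly by the size of their midbrain change, which is part of the difference. The count of 131 therefore gives no independent support. Among the fixed panel, 10 genes were called in opposite directions. The difference (log2, midbrain minus cortex) was -10.38 for Stmn2, -7.37 for Tubb3, -6.16 for Snap25 and -5.47 for Gad1. It was 5.78 for Pdgfra, 5.26 for Aqp4, 4.74 for Sox10, 4.59 for Hes5, 2.83 for Gfap and 2.75 for Cdkn2a. The cortex time labels are in doubt, because cortex labelled 48 h correlated more with midbrain 13 d (0.9896) than with midbrain 48 h (0.9303), and cortex labelled 13 d more with midbrain 48 h (0.9738) than with midbrain 13 d (0.9509), and an exchange would turn every cortex change. With the sign of the cortex change turned, the counts were 673 and 800, and the difference remained called in the same direction for Stmn2 (-3.32), Snap25 (-1.71), Gad1 (-1.13) and Aqp4 (1.67). For the other 6 genes it was not called: Tubb3 -0.85, Hes5 0.80, Gfap 0.46, Sox10 -0.34, Cdkn2a -0.26 and Pdgfra 0.01. The 10 genes were chosen for opposite calls, so turning the cortex sign must shrink the difference of each. Their smaller differences therefore give no independent support to either reading of the labels. Array set also differs with time in midbrain and not in cortex, so array set, region and a label exchange cannot be told apart here. No test for single outlying arrays was run in the groups of 3. Arrays of both regions at 21% O2 were left out 1 at a time. The lowest array weight of the series was that of replicate 1 of cortex labelled 48 h at 21% O2 (0.23).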

How the results depend on the processing

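The number of large rises in midbrain at 21% O2 (1865) ranged from 1779 to 2059 when 1 array was left out and from 1715 to 2048 under the other alternatives with the 2-fold limit, and that of large falls (1742) from 1720 to 1783 and from 1439 to 2037. With the fold threshold of 4 there were 385 rises and 586 falls, since fewer probe sets reach it. With the replicate block the counts were 1865 and 1743; same-numbered arrays of the 2 times correlated at -0.061, 0.16 and -0.127 in their deviations, so the numbers were not taken to pair them. Passing the adjusted p alone were 12325 to 12996 probe sets without 1 array and 10032 to 15609 under the other alternatives, against 13328. With the sign of the cortex change turned, chosen after seeing the data, the difference between midbrain and cortex was called for 673 probe sets upward and 800 downward, against 3182 and 2672. Of the 161 named probe sets, 153 stayed on their side of the call under every alternative run, 2 (Anpep and Ccnd3) dropped below the limit under at least 1, 6 came above it, and 0 reversed. Anpep was -0.99 without 48 h replicate 3. With all probe sets of the members, the channel list had 35 falls and a median of -2.65, the synaptic list a median of -1.98 and the peptide list -0.96. Probe sets and not genes are counted there. The reference list then had 9 rises, among them further probe sets of Pgk1 and several of Rps18, which was not called through its chosen probe set. The limits are the array sets, 3 arrays a group, an unstated normalization and values without a measured background.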
